A study of Caenorhabditis elegans with 12 samples.

Results

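The 85 genes described here are the hedgehog-related and patched-related genes of Caenorhabditis elegans. They were chosen by name, as every gene whose WormBase symbol is grd, grl, wrt, hog, qua, ptr or ptc followed by a number, out of 22113 genes in the deposited tables. Of these, 59 encode secreted hedgehog-related proteins (16 grd, 31 grl and 10 wrt genes, hog-1 and qua-1) and 26 encode patched-related membrane proteins (24 ptr genes, ptc-1 and ptc-3). The 2 classes are described apart.

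RNA-seq libraries of polyadenylated RNA were made from whole animals, in 4 groups of 3. All animals carried daf-2(e1370), an allele of the insulin-like receptor that sends larvae into dauer, a long-lived alternative larval stage, when they are warm. One strain, CB1370, carried that allele alone (daf-2 below), and the other, LJ2703, also carried daf-42(ys54) (the double mutant below). Eggs were laid over 2 h at 15 °C, larvae grew at 25 °C, and late L2d larvae, the stage before dauer, were harvested at 52 h or 60 h after egg laying. Per the labels, the 60 h harvest of the double mutant contained dead as well as living larvae, in proportions that are not given, so death and genotype cannot be told apart in any result that uses this group. Nothing in the labels says that the replicates were separate cultures, so p-values measure the spread between these libraries, which may be technical.

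In vertebrates and flies a hedgehog protein is cleaved by its own Hog domain, receives a lipid, leaves the cell with the help of Dispatched, and binds Patched, which then releases Smoothened. The nematode lacks Smoothened and a true hedgehog protein, but has large families in which a Wart (wrt) or Ground (grd) domain is joined in some members to a Hog domain, and a family of ground-like (grl) proteins without one. Patched and patched-related proteins share a sterol-sensing domain. Many genes of both classes are active in epidermis, glia and other cells that face the cuticle, their levels cycle with the molt, and loss of several of them disturbs molting, the cuticle or lumen shape.

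The libraries held 30011686 to 43519410 estimated counts each. The targeted gene, daf-42, measured 969, 1960 and 532 CPM, counts scaled to library size, in the 3 daf-2 libraries at 60 h and 273, 74.9 and 149 CPM in the double mutant, a log2 difference of -2.80 (SE 0.54, edgeR adjusted p 0.00277); at 52 h the difference of -1.08 did not pass (edgeR adjusted p 0.838). Between libraries at 60 h, levels shifted with transcript length. Among the 1743 tested genes of 2500 to 5000 bases, the median log2 deviation from a gene's mean was 0.17, 0.63 and -0.24 in the 3 daf-2 libraries at 60 h and -0.05, -1.25 and -0.59 in those of the double mutant. These genes had a median log2 genotype difference of -0.79 at 60 h, with 41.4% called lower and 1.72% called higher, while genes under 1000 bases had a median of 0.44. This bears on the members by class. The median transcript length was 2966 bases in patched-related genes (2555 to 4994) and 882 bases in secreted genes (380 to 3850), against 1055 over all genes. The calls of a class in each direction that involve 60 h are therefore given a second time with a length offset. This is a fit from which the trend with transcript length was removed in each library.

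Levels per transcript length are given first, in the deposited TPM (transcript abundance scaled by length and library), which allow genes to be set beside each other. A few ground-like genes supplied most of the secreted class. The gene grl-23 had the highest level in each of the 12 libraries, with a mean of 7420 TPM, and measured 4260, 6620 and 6110 TPM in daf-2 at 52 h and 7720, 11800 and 9780 TPM in daf-2 at 60 h. Next came grl-20 with a mean of 3980 TPM, grl-25 with 2700, grd-5 with 1610 and grl-9 with 1200. The 3 highest members of a library held 56.4% to 75% of the class's summed TPM. In their group means the order of neighbours changed with time. The gene grl-9 stood at 1890 ± 612 TPM against 920 ± 24.5 for grd-5 in daf-2 at 52 h (SD, n = 3), and at 625 ± 348 against 2710 ± 1180 at 60 h, with no overlap between the libraries of either pair. By contrast, grl-20 and grl-25 overlapped in daf-2 at 60 h, at 2450 to 4280 and 2160 to 5250 TPM.

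The highest patched-related genes stood far below the highest secreted genes, but the median over members of the mean level was 20 TPM for secreted and 21.2 TPM for patched-related genes. By the mean over all libraries the highest was ptc-3, an essential Patched homologue, with 104 TPM. It was followed by ptr-4, which organises the matrix laid down before the cuticle, with 55.3 TPM, by ptc-1, a Patched homologue needed for cell division in the germ line, with 53.4, by ptr-8 with 43.7 and by ptr-18, which helps to keep progenitor cells quiescent in starved hatchlings, with 42. The levels below that of ptc-3 were close together, and the order changed between groups. The gene ptr-4, ptr-23 or ptr-1 was the highest in 4 of 12 libraries. In daf-2 at 60 h ptr-4 was at 20.7 TPM, below ptr-23 at 99.5, ptr-3 at 88.3 and ptr-12 at 86.5, and in the double mutant at 60 h ptr-1 was at 58.6 TPM and ptc-3 at 49.5. In daf-2 at 52 h ptc-1 spanned 50.0 to 69.9 TPM and ptr-18 spanned 45.1 to 76.5, so their order is within the spread of libraries. The lowest member of the class, ptr-9, had a mean of 0.671 TPM.

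**Figure D1:**
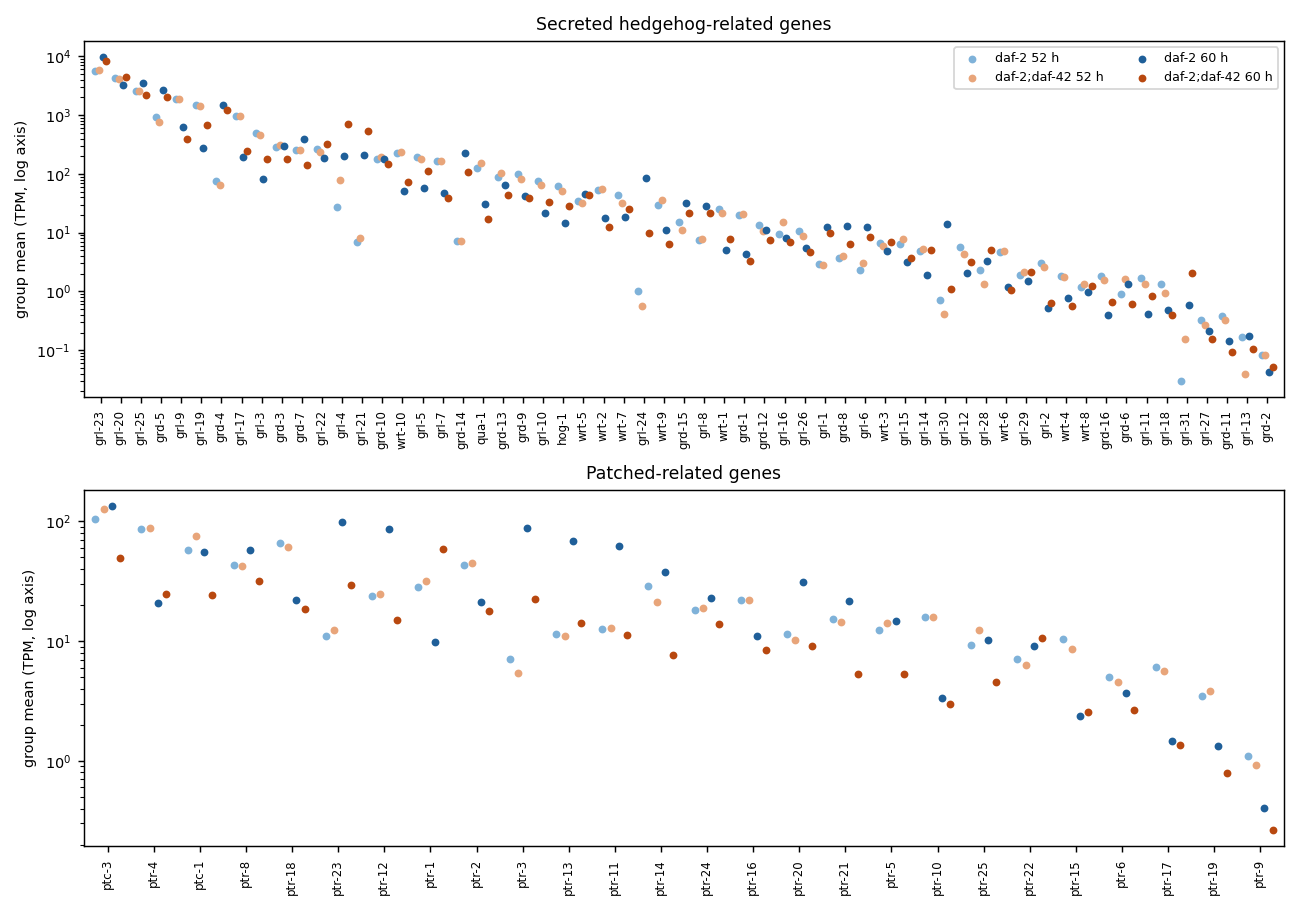
Mean level of each member in the 4 groups, in TPM on a log axis, with secreted and patched-related genes apart and 1 point per gene and group (mean of 3 libraries). Secreted genes span from grl-23, with a mean of 7420 TPM over all libraries, down to genes under 1 TPM, while the highest patched-related gene, ptc-3, has a mean of 104 TPM.

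Summed over the class, secreted genes gave 20800 ± 4160 TPM in daf-2 and 20500 ± 2240 TPM in the double mutant at 52 h, and 24300 ± 4270 and 22400 ± 4720 TPM at 60 h (SD, n = 3). The ranges of the 4 groups overlapped. Patched-related genes summed to 663 ± 110 and 698 ± 100 TPM at 52 h. The daf-2 libraries at 60 h gave sums of 755, 1310 and 627 TPM, all above the 519, 239 and 423 TPM of the double mutant. The library with the lowest sum, replicate 2 of the double mutant, is also the one in which genes of 2500 to 5000 bases lay lowest. The part of the length trend in this difference was not tested.

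For the tests, 83 members passed the filter on low counts, 57 secreted genes and all 26 patched-related genes. The other 2, grl-13 and grl-27, had at most 8 and 6 counts in any library. Values from here on are CPM, which compare 1 gene between libraries and not genes with each other, and log2 fold changes from edgeR's quasi-likelihood test, with Benjamini-Hochberg adjustment over all 16371 genes tested. A gene was called where the adjusted p was under 0.05. Because these are whole animals, fewer cells of a type and less RNA per cell cannot be told apart.

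At 52 h no member of either class differed between the genotypes by edgeR. Over all genes 0.635% were called, 0.44% higher and 0.195% lower. One secreted gene and no patched-related gene had an unadjusted p under 0.05, and DESeq2 called the same secreted gene, grl-4, and no other member. Its libraries read 24.6, 14.3 and 16.6 CPM in daf-2 and 72.3, 29.8 and 60.5 CPM in the double mutant. All 3 double-mutant libraries were above all 3 daf-2 libraries. The log2 difference was 1.55 (SE 0.38, edgeR adjusted p 0.125; DESeq2 adjusted p 0.00508). The libraries of the 2 genotypes did not overlap for 3 secreted genes and no patched-related gene, where 18.2% of all genes had no overlap. Beside grl-4 these were grl-18 (-0.51), whose promoter is active in glia, and hog-1 (-0.27), neither of them called. The gene grl-4 lies on chromosome IV, 22.9 kb from daf-42, with 5 annotated genes between them.

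From 52 h to 60 h the secreted genes of daf-2 larvae moved in both directions. By edgeR 38 of 57 were called, 13 higher and 25 lower at 60 h, and the median log2 change of the class was -0.43. Over all genes 34.7% were called, 18.5% higher and 16.2% lower, with a median of 0.07. The split hardly moved with the length offset (14 higher and 25 lower, median -0.47). The 52 h and 60 h libraries did not overlap for 41 secreted genes, against 48.7% of all genes. By family, 5 grd genes rose and 3 fell of 16, 8 grl genes rose and 13 fell of 29, and 7 of 10 wrt genes fell while none was called higher.

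The largest rise started from a very low level. The gene grl-24 had 4, 5 and 11 counts in the 3 daf-2 libraries at 52 h and 425, 397 and 1010 at 60 h, which is 0.101, 0.145 and 0.298 CPM against 13.1, 12.4 and 25.5 CPM. Its log2 change of 6.53 (SE 0.57, edgeR adjusted p 4.91e-06) was the largest in the class. A pair of neighbouring Ground genes on chromosome X, grd-14 and grd-4, also rose. For grd-14 the daf-2 libraries went from 5.75, 2.63 and 2.06 CPM to 98.4, 92.5 and 180 CPM (log2 5.15, SE 0.46, edgeR adjusted p 6.04e-06). The grd-4 libraries went from 48.8, 37.4 and 48.0 CPM to 723, 554 and 1780 CPM (log2 4.51, SE 0.52, edgeR adjusted p 4.05e-05). In both, the 60 h libraries were all far above the 52 h libraries, and replicate 3 was the highest at 60 h. The gene grl-21, reported to act with the patched-related gene ptr-24 in the control of fat stores, read 7.87, 1.59 and 1.14 CPM at 52 h and 103, 101 and 142 CPM at 60 h (log2 5.02, SE 0.64, edgeR adjusted p 8.02e-05). The gene grl-30 rose by 4.45 on the log2 scale from at most 10 counts in a library. Not all rises began low, and the abundant gene grd-5 rose from 308, 308 and 300 CPM to 768, 578 and 1790 CPM (log2 1.78, SE 0.41, edgeR adjusted p 0.00478). A further member, grl-31, had 1, 0 and 0 counts at 52 h and 3, 7 and 8 at 60 h, too few for a fold change.

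No fall reached the size of the largest rises, and the genes that fell ranged at 52 h in daf-2 from grl-18 at 1.35 TPM to grl-9 at 1890 TPM. The gene grl-3 read 407, 386 and 351 CPM in daf-2 at 52 h and 87.1, 48.3 and 69.3 CPM at 60 h, a log2 change of -2.48 (SE 0.28, edgeR adjusted p 3.81e-05). The largest falls beside it were grl-2 (-2.46), whose promoter is active in glial socket and excretory duct cells, grl-19 (-2.26), grl-17 (-2.24), wrt-1 (-2.19) and grd-1 (-2.15). The gene hog-1, which encodes a Hog domain, went from 42.7, 44.3 and 41.0 CPM to 11.7, 7.71 and 13.6 CPM (log2 -1.96, SE 0.23, edgeR adjusted p 4.24e-05). The molting gene qua-1 went from 359, 593 and 595 CPM to 152, 179 and 56.5 CPM (log2 -2.0, SE 0.51, edgeR adjusted p 0.00913). For each of these 3 genes the 52 h and 60 h libraries did not overlap.

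In the double mutant 31 of 57 secreted genes were called over the same interval, 17 higher and 14 lower, with a median log2 change of -0.18. Over all genes 41% were called, 22.4% higher and 18.6% lower, with a median of 0.00. With the length offset the split turned to 13 higher and 20 lower and the median to -0.48. The libraries of the 2 times did not overlap for 36 secreted genes, against 55.7% of all genes. The rises were led by grl-21 (log2 6.61, from 3.61, 3.92 and 4.50 CPM to 288, 539 and 347 CPM), grd-4 (4.78), grl-24 (4.75), grd-14 (4.53) and grl-4 (3.59). The gene grl-31 had 0, 0 and 5 counts at 52 h and 13, 36 and 40 at 60 h. The largest falls were qua-1 (-2.75), grd-1 (-2.23), wrt-9 (-2.06), grl-9 (-1.88) and wrt-2 and wrt-6 (both -1.76). For qua-1 the libraries went from 534, 564 and 752 CPM to 155, 34.9 and 85.4 CPM (SE 0.53, edgeR adjusted p 0.00235).

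The 2 time comparisons share no library, so their calls can be set side by side. All 13 secreted genes called higher in daf-2 were also called higher in the double mutant, where they were 76.5% of the 17 rises. Of the 25 called lower in daf-2, 14 (56%) were also called lower in the double mutant, and they were 100% of its falls. No secreted gene was called in opposite directions. Over all genes, 56.9% of the rises and 41.3% of the falls in daf-2 were called the same way in the double mutant, and 105 genes were called in opposite directions. These shares were not computed with the length offset, under which the double mutant had fewer secreted rises and more falls. The 11 secreted genes called lower in daf-2 and not called in the double mutant were not thereby shown to differ between the genotypes. That is the interaction, given below.

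**Figure D2:**
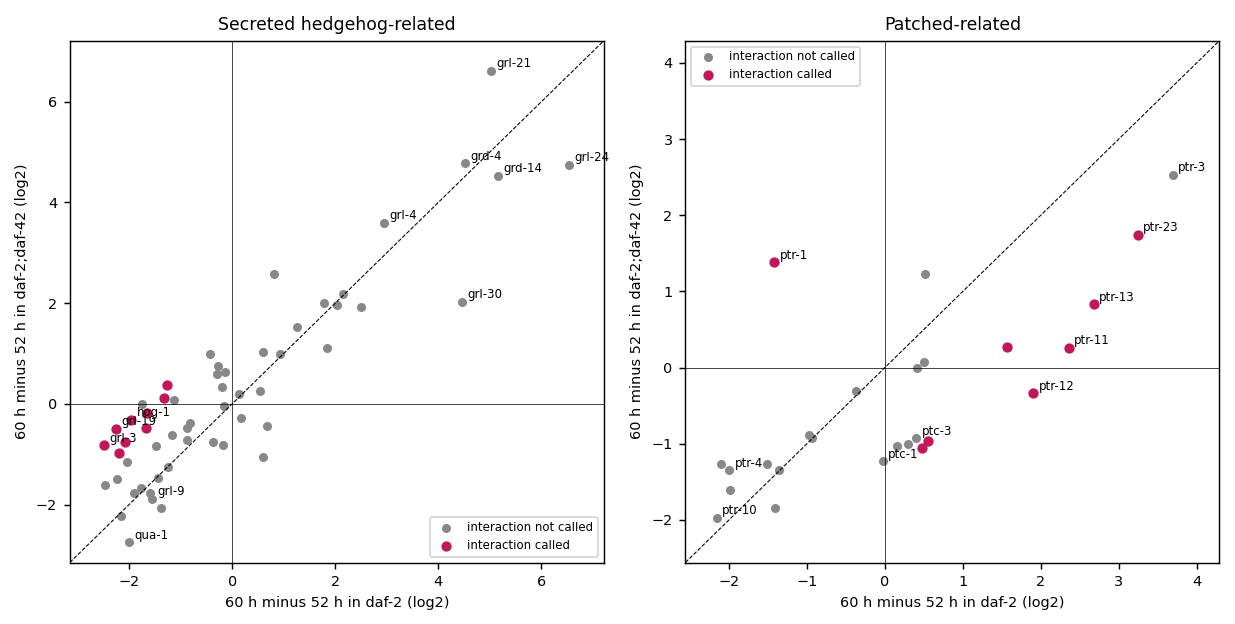
Log2 change from 52 h to 60 h in daf-2 (x axis) and in the double mutant (y axis), 1 point per tested member, with secreted and patched-related genes apart and the line of equal change. The gene grl-31 is left out because its 52 h level in daf-2 rests on 1 count. Over all tested members, the change in the double mutant minus that in daf-2 has quartiles of -0.17 and 1.03 in secreted genes. In patched-related genes they are -1.32 and 0.16. These values are without the length offset. With it the median turns from -0.43 to 0.39 in patched-related genes, and goes from 0.27 to 0.29 in secreted genes. The gene ptr-1 lies on opposite sides of 0 in the 2 genotypes (-1.42 and 1.38), and ptr-11, ptr-12 and ptr-13 lie below the line.

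Patched-related genes also moved in both directions in daf-2, with 16 of 26 called, 6 higher and 10 lower, against 18.5% higher and 16.2% lower over all genes. The median log2 change of the class was 0.22. The length offset left this split as it was. The 6 rises were ptr-3 (log2 3.69), ptr-23 (3.24), ptr-13 (2.68), ptr-11 (2.36), ptr-12 (1.90) and ptr-20 (1.57). For ptr-3 the libraries went from 26.9, 17.6 and 22.8 CPM at 52 h to 202, 385 and 284 CPM at 60 h (SE 0.33, edgeR adjusted p 5.59e-06). The ptr-23 libraries went from 33.9, 37.8 and 42.9 CPM to 264, 484 and 338 CPM (SE 0.25, edgeR adjusted p 2.09e-06). Neither gene had any overlap between the times, and replicate 2 was the highest 60 h library for both.

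The largest falls in daf-2 were ptr-10 (-2.16), whose promoter is used as a marker of glia, ptr-15 (-2.10), ptr-4 (-2.0), ptr-17 (-1.99) and ptr-18 (-1.51). The gene ptr-4 went from 276, 295 and 286 CPM to 88.7, 71.3 and 53.7 CPM (SE 0.25, edgeR adjusted p 7.71e-05). Next was ptr-1, at -1.42, which is described below. The Patched homologues did not move beyond the spread of libraries in daf-2, with log2 changes of -0.03 for ptc-1 (SE 0.38, edgeR adjusted p 0.958) and 0.40 for ptc-3 (SE 0.39, edgeR adjusted p 0.477).

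In the double mutant 18 of 26 patched-related genes were called over time, 5 higher and 13 lower, against 22.4% higher and 18.6% lower over all genes. The median log2 change was -0.93, but with the length offset 11 were higher and 5 lower and the median was 0.01. Of these 18 calls, 10 were kept under the offset. Over all genes of 2500 to 5000 bases the median change in this comparison was -0.87 and 54% were called lower, so the lean of the class toward lower levels was near that of other genes of its length. Calls kept under the offset and in every other setting tried except the minimum fold change were the rises of ptr-1 (1.38), ptr-3 (2.53) and ptr-23 (1.74) and the falls of ptr-9, ptr-10, ptr-17, ptr-18 and ptr-19. These falls ran from -1.27 for ptr-18 to -1.97 for ptr-10. The falls of ptr-4 and ptc-1, called at -1.35 and -1.23, were -0.46 and 0.04 with the offset and were not called. The gene ptc-3 was called lower by DESeq2 (-0.95, DESeq2 adjusted p 0.0384) but not by edgeR (-0.93, edgeR adjusted p 0.0739). The rise of ptr-13 (0.83) was lost when any of 4 double-mutant libraries was left out (replicates 1 and 2 at 52 h, replicates 1 and 3 at 60 h; 0.66 to 0.78), and that of ptr-22 (1.23) without replicate 2 at 52 h or replicate 3 at 60 h (1.05 and 1.07).

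Between the genotypes, 3 patched-related genes were called higher over time in both and 9 lower in both, which are 50% and 90% of the rises and falls in daf-2 and 60% and 69.2% of those in the double mutant. Over all genes these shares were 56.9% and 41.3% in daf-2 and 47% and 36% in the double mutant. All these shares are from the fit without the length offset and were not computed with it. With the offset the double mutant had more patched-related rises than falls, as given above, so the shared falls would be fewer. One gene, ptr-1, was called in opposite directions.

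At 60 h the genotypes differed in both classes. Of 57 secreted genes 19 were called, 17 higher and 2 lower in the double mutant, with a median log2 difference of 0.20. Over all genes 34.4% were called, 17.4% higher and 17% lower, with a median of -0.01. The number of called secreted genes was thus near the background, while their direction was mostly higher. Short genes as a whole also leaned higher. Among all tested genes under 1000 bases, 26.2% were called higher and 7.94% lower, with a median of 0.44. The median length of the secreted genes was 882 bases. With the length offset 16 were higher and 6 lower, and 16 of the 19 calls were kept. The libraries of the genotypes did not overlap for 21 secreted and 13 patched-related genes, against 38.8% of all genes. The rises were 11 of 29 grl genes, 4 of 10 wrt genes, hog-1 and 1 of 16 grd genes. Leaving out replicate 3 of the double mutant at 60 h gave 11 higher and 2 lower.

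The gene grl-4 read 126, 150 and 152 CPM in daf-2 and 675, 370 and 906 CPM in the double mutant at 60 h, a log2 difference of 2.19 (SE 0.38, edgeR adjusted p 0.00152). The lowest double-mutant library was above the highest daf-2 library by more than the whole daf-2 range. For grl-14 the libraries read 3.82, 2.78 and 2.29 CPM against 12.2, 7.97 and 10.4 CPM (log2 1.78, SE 0.22, edgeR adjusted p 0.000142). For grl-19 they read 108, 59.0 and 111 CPM against 204, 416 and 293 CPM (log2 1.72, SE 0.31, edgeR adjusted p 0.0017). For grl-3 they read 87.1, 48.3 and 69.3 CPM against 159, 226 and 201 CPM (log2 1.52, SE 0.27, edgeR adjusted p 0.00181). In each of these genes the 2 genotypes were apart. The same held for hog-1, at 11.7, 7.71 and 13.6 CPM against 22.1, 34.7 and 28.8 CPM (log2 1.38, SE 0.22, edgeR adjusted p 0.000926).

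Of the 17 rises, 9 were kept in every setting tried other than the minimum fold change. Other rises were less firm. That of grl-21 (1.76, edgeR adjusted p 0.0283) was lost without replicate 1 or 2 of daf-2 or replicate 2 or 3 of the double mutant at 60 h (1.49 to 1.84). That of grl-31 (2.33, edgeR adjusted p 0.0165), which rests on the 3, 7 and 8 against 13, 36 and 40 counts given above, was lost without replicate 1 of daf-2 or replicate 2 or 3 of the double mutant (2.05 to 2.16). The abundant gene grl-20 read 1840, 2180 and 1810 CPM against 3510, 3330 and 3600 CPM and was called at 0.84 (SE 0.27, edgeR adjusted p 0.0333), but at 0.42 with the length offset it did not pass (edgeR adjusted p 0.252). The call for wrt-3 (0.86, edgeR adjusted p 0.0493) was lost in 15 of the 22 other settings, among them the length offset and 9 of the 12 fits that each lacked a library. The annotation also overlaps wrt-3 with a pseudogene on the same strand over 1002 exonic bases, although its counts were whole in all libraries. Signalling by WRT-10 through ptc-1 and ptr-2 is known to bear on oocyte quality in ageing animals. In these larvae wrt-10 was called 0.90 higher (SE 0.27, edgeR adjusted p 0.0258), a call that was lost without replicate 2 of daf-2 or replicate 3 of the double mutant at 60 h, while ptc-1 and ptr-2 were not called at 60 h.

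The 2 secreted genes called lower in the double mutant at 60 h were among those that had risen most with time in daf-2. Both comparisons use the daf-2 libraries at 60 h, so they are not independent. The gene grl-24 read 13.1, 12.4 and 25.5 CPM in daf-2 and 1.94, 4.65 and 1.65 CPM in the double mutant (log2 -2.63, SE 0.44, edgeR adjusted p 0.00105). For grl-30 the libraries read 2.62, 2.69 and 5.41 CPM against 0.197, 0.527 and 0.406 CPM (log2 -3.23, SE 0.47, edgeR adjusted p 0.000449). No double-mutant library reached the lowest daf-2 library in either gene. Both calls were kept in every setting tried other than the minimum fold change. The other 3 members called with a rise of at least 4 on the log2 scale in daf-2 differed in what they did at 60 h, since grd-4 and grd-14 were not called between the genotypes and grl-21 was called higher.

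**Figure D3:**
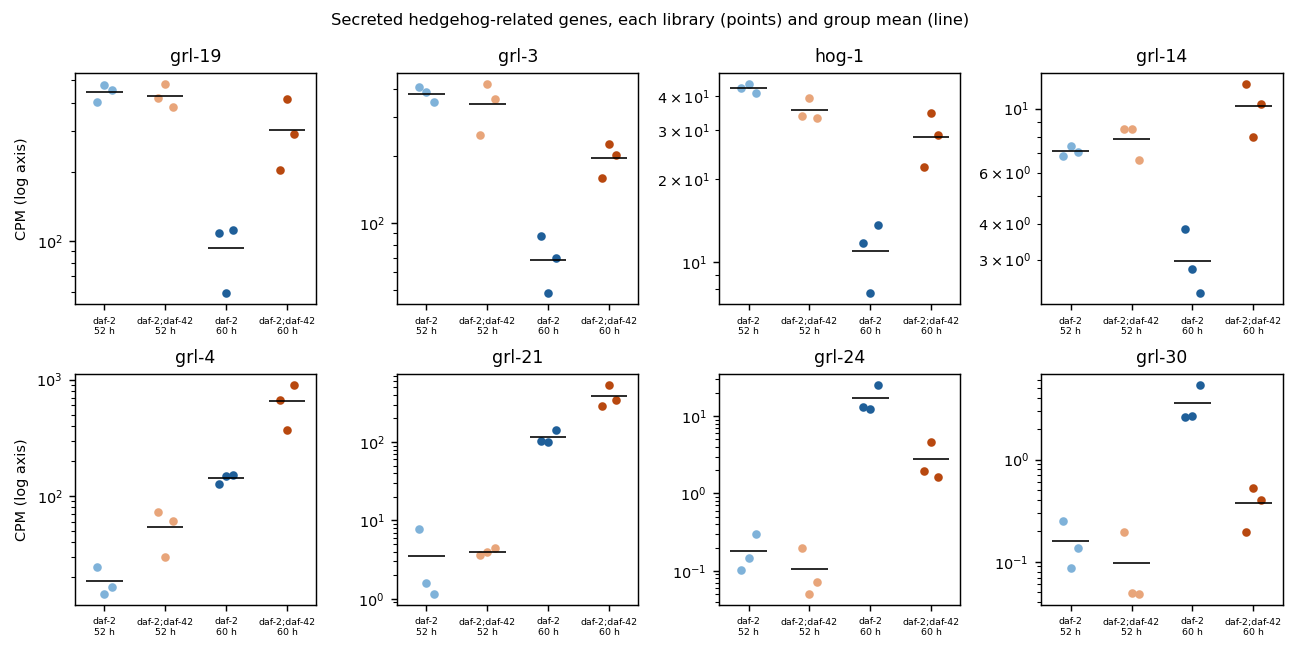
CPM of selected secreted genes in each library (points) and the group mean (line), on log axes, for daf-2 and the double mutant at 52 h and 60 h. At 60 h grl-24 and grl-30 are lower in every double-mutant library than in any daf-2 library, and grl-4, grl-14, grl-19, grl-3 and hog-1 are higher.

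Of 26 patched-related genes 10 were called at 60 h, 1 higher and 9 lower, where 34.4% of all genes were called, so the number was near the background. Their median log2 difference was -0.43, but the balance turned with the length offset, to 10 higher and 7 lower and a median of 0.27. Of the 10 calls, 8 were kept under the offset. Those of ptr-5 and ptr-23 were not. The calls kept in every setting tried other than the minimum fold change were ptr-1, higher, and ptr-3, ptr-11, ptr-12, ptr-13, ptr-14, ptr-20 and ptr-21, lower.

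Without the length offset, ptr-1 was the 1 patched-related gene called higher at 60 h, and it had the largest difference of the class with or without it. It lies on chromosome V at 9177949 to 9181719 on the minus strand (WBcel235). Its libraries read 87.7, 87.9 and 93.9 CPM in daf-2 and 92.4, 105 and 102 CPM in the double mutant at 52 h, and 31.9, 32.4 and 36.1 CPM and 233, 241 and 306 CPM at 60 h. Replicates lay close together in all 4 groups, and from overlapping levels at 52 h the gene fell in 1 strain and rose in the other. At 60 h the double mutant was higher by 2.96 on the log2 scale (SE 0.19, edgeR adjusted p 1.63e-06), and by 3.72 with the length offset. The changes over time were -1.42 in daf-2 (SE 0.18, edgeR adjusted p 7.4e-05) and 1.38 in the double mutant (SE 0.18, edgeR adjusted p 0.000151). The annotation places 49 exonic bases of ptr-1 opposite spas-1. That gene did not differ at 60 h (log2 -0.05, edgeR adjusted p 0.87), and ptr-1 held whole counts in all 12 libraries, as a gene does that shares no reads with another transcript.

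The genes ptr-11, ptr-12 and ptr-13, which rose in daf-2 and had a called interaction (below), were lower in the double mutant at 60 h. These comparisons all use the daf-2 libraries at 60 h, so they are not independent of each other. For ptr-11 the libraries read 27.6, 39.0 and 38.9 CPM in daf-2 and 40.4, 34.3 and 32.9 CPM in the double mutant at 52 h, and 161, 218 and 163 CPM and 49.8, 32.7 and 46.0 CPM at 60 h. The later libraries gave a log2 difference of -2.08 (SE 0.23, edgeR adjusted p 6.01e-05), and of -1.45 with the offset. For ptr-13 they read 194, 253 and 220 CPM in daf-2 and 67.6, 38.8 and 70.7 CPM in the double mutant at 60 h (log2 -1.91, SE 0.28, edgeR adjusted p 0.000494), and the difference was -1.25 with the offset. For ptr-12 they read 266, 357 and 221 CPM against 88.4, 30.4 and 69.1 CPM (log2 -2.17, SE 0.34, edgeR adjusted p 0.000685), and the difference was -1.51 with the offset. This gene did not hold whole counts in 9 libraries, so part of its reads is shared with another gene. In all 3 genes the genotypes were apart at 60 h, and replicate 2 of the double mutant was the lowest library.

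Further genes called lower were ptr-14 (-1.95), ptr-21 (-1.62), ptr-3 (-1.56), ptr-20 (-1.41), ptr-23 (-1.33) and ptr-5 (-1.13). The gene ptr-3 read 202, 385 and 284 CPM in daf-2 and 99.3, 65.0 and 132 CPM in the double mutant (SE 0.30, edgeR adjusted p 0.00289), and its difference was -0.82 with the offset. The call of ptr-5 was lost without replicate 1 or 2 of daf-2 or replicate 2 or 3 of the double mutant at 60 h. The Patched homologues were not called, at -0.81 for ptc-1 (SE 0.38, edgeR adjusted p 0.109) and -1.03 for ptc-3 (SE 0.39, edgeR adjusted p 0.0602). For ptc-3 the libraries read 463, 1030 and 432 CPM in daf-2 and 395, 172 and 377 CPM in the double mutant. They did not overlap, but the gap between the genotypes was smaller than the spread within either. DESeq2 called ptc-3 lower (-1.05, DESeq2 adjusted p 0.0244), as did edgeR with upper-quartile size factors (-1.04) and without replicate 3 of daf-2 (-1.24) or replicate 1 of the double mutant (-1.22) at 60 h. With the length offset the difference was 0.11 and was not called.

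**Figure D4:**
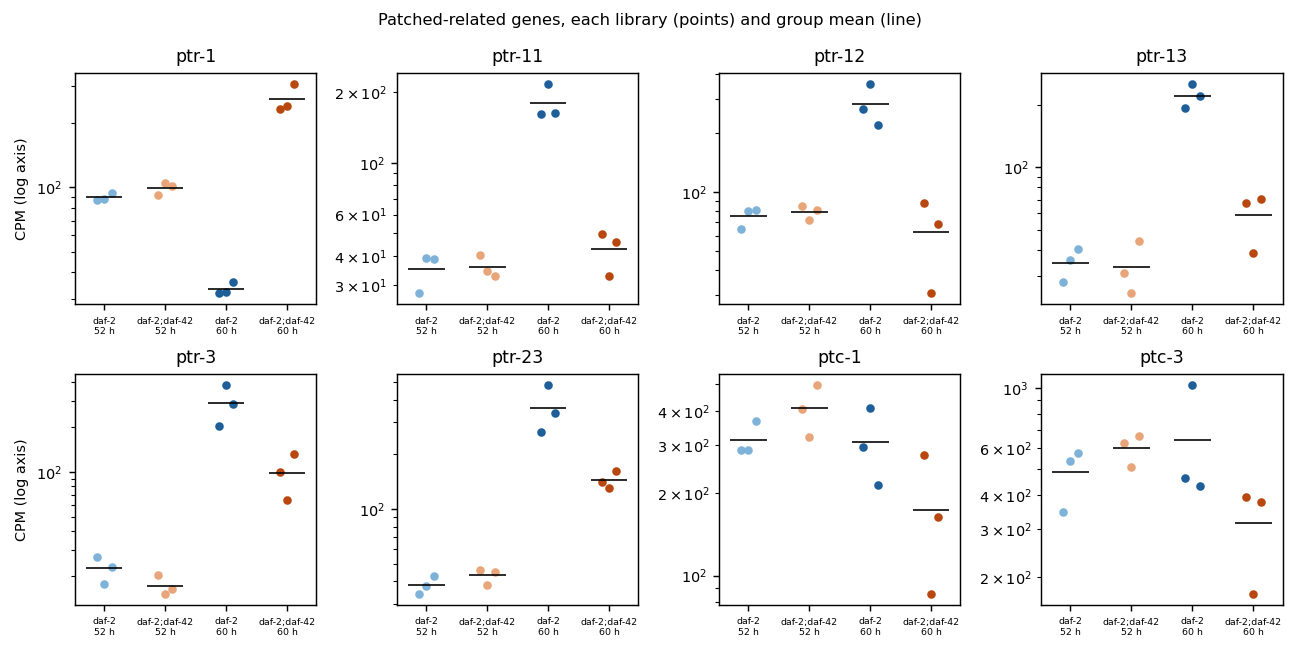
CPM of 8 patched-related genes in each library (points) and the group mean (line), on log axes, for daf-2 and the double mutant at 52 h and 60 h. The gene ptr-1 falls with time in daf-2 (31.9 to 36.1 CPM at 60 h) and rises in the double mutant (233 to 306 CPM), while ptr-11, ptr-12 and ptr-13 are high at 60 h in daf-2 and stay lower in the double mutant.

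**Figure D5:**
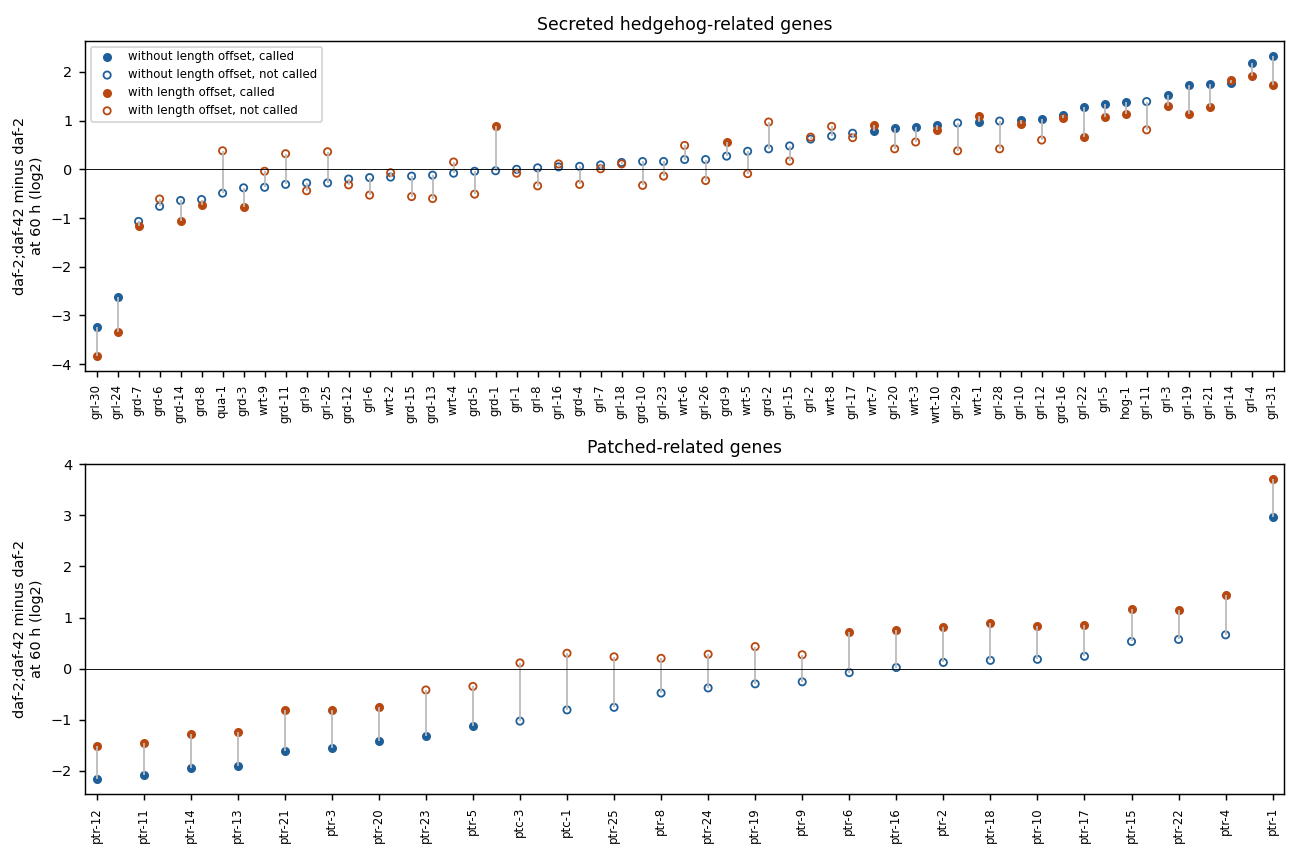
Log2 difference between the double mutant and daf-2 at 60 h for each tested member, without and with the length offset, with secreted and patched-related genes apart. Filled points passed an edgeR adjusted p of 0.05. With the offset the patched-related genes move up as a class (median -0.43 without and 0.27 with it), ptr-1 stays the highest, and ptr-11, ptr-12 and ptr-13 stay among the lowest.

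Whether the change over time differed between the genotypes was tested by the interaction. Over all genes 9.52% were called, 5.58% with a more positive change in the double mutant and 3.94% with a more negative one. Of 57 secreted genes 9 were called, all with a more positive change in the double mutant, and with the length offset 11 were more positive and 2 more negative. The 2 kept in every setting other than the minimum fold change were grl-14 (1.64, SE 0.31, edgeR adjusted p 0.00866) and hog-1 (1.64, SE 0.31, edgeR adjusted p 0.00916). No more than 2 secreted genes were called without replicate 2 of daf-2 at 52 h or without replicate 3 of the double mutant at 60 h, and 4 were called with the replicate number as a block. The median interaction of the patched-related genes was -0.43 without the length offset and 0.39 with it, against 0.27 and 0.29 in the secreted genes. Of 26 patched-related genes 8 were called, 1 more positive and 7 more negative, but with the length offset 7 were more positive and 3 more negative. The 3 negative ones under both were ptr-11 (-2.11, edgeR adjusted p 0.00262), ptr-12 (-2.24, edgeR adjusted p 0.0138) and ptr-13 (-1.85, edgeR adjusted p 0.0155). The positive one was ptr-1, at 2.81 (SE 0.25, edgeR adjusted p 0.000144) and at 3.72 with the offset. Without replicate 2 of daf-2 at 52 h, 4 patched-related genes were called.

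The members are not spread evenly over the genome. Of the secreted genes 28 of 59 (47.5%) lie on chromosome V, which holds 25.1% of protein-coding genes, while patched-related genes lie mainly on chromosomes II (8) and I (7). Within 5 kb of each other lie 9 neighbouring pairs, all of secreted genes. Neighbours did not always share a pattern. The pair grd-14 and grd-4 on chromosome X, 184 bases apart, rose together in both genotypes. The pair wrt-1 and wrt-10 on chromosome II, 15 bases apart, fell together in both, by 2.19 and 2.04 in daf-2 and by 0.97 and 1.15 in the double mutant on the log2 scale. On chromosome V, 136 bases separate grl-9 and grl-8, yet from 52 h to 60 h in daf-2 grl-9 fell by 1.56 and grl-8 rose by 2.03 on the log2 scale, and in the double mutant grl-9 fell by 1.88 and grl-8 rose by 1.97. At 60 h grl-30 was lower in the double mutant (-3.23) and its neighbour grl-31, 332 bases away, was higher (2.33), although the latter rests on few counts. Annotated neighbours this close may exchange reads where transcripts overlap, and 26 members overlap another annotated gene. Libraries were made with a stranded kit, but the strand setting used in counting is not given in the sources used here.

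Other genes of hedgehog-like biology were called at 60 h in 2 cases. Of 9 matched genes for lipid attachment, cell-surface cofactors and the Gli homologue tra-1, 1 was higher and 1 lower in the double mutant at 60 h. The GAS1-like gene phg-1 read 32.2, 25.7 and 46.8 CPM in daf-2 and 63.5, 120 and 99.8 CPM in the double mutant (log2 1.44, SE 0.28, edgeR adjusted p 0.00273), and it was the 1 gene of the list with a called interaction (1.71, edgeR adjusted p 0.0199). The gene tra-1 was lower (-1.23, edgeR adjusted p 0.0328). Over time 2 fell in daf-2, the acyltransferase gene hhat-1 (-2.06) and phg-1 (-1.32), and 3 fell in the double mutant, hhat-1 (-1.20), tra-1 (-1.40) and rib-2 (-0.67), which makes heparan sulphate. None rose. Over all genes 34.4% were called at 60 h, 34.7% over time in daf-2 and 41% over time in the double mutant. Of 7 other genes with a sterol-sensing domain none was called between the genotypes at 60 h (unadjusted p under 0.05 for 2). Over time 2 fell in daf-2 and 3 in the double mutant. They were the Dispatched homologue che-14 (-1.69 and -1.20), the glial lumen gene daf-6 (-1.62 and -1.08) and, in the double mutant, ncr-1 (-1.53), a homologue of the Niemann-Pick cholesterol transporter. The median length of these 7 genes was 2905 bases. Of all genes of 2500 to 5000 bases, 9.18% were called lower over time in daf-2 and 54% in the double mutant. The part of the length trend in the changes of these 2 lists was not tested.

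Of 15 genes of the molting cycle, 1 rose and 5 fell with time in daf-2, and 8 fell in the double mutant. The receptor gene nhr-23, which drives the molting cycle, fell in both (-1.37 and -2.03), as did the matrix genes noah-1 (-1.88 and -2.59) and noah-2 (-1.89 and -2.48), while nhr-25 rose in daf-2 (1.11, edgeR adjusted p 0.0183). At 60 h nekl-3 (0.86) and nekl-2 (0.76) were higher in the double mutant and the megalin homologue lrp-1 (-1.84) and nhr-25 (-1.15) were lower. Of this list 40% were called over time in daf-2, 53.3% over time in the double mutant and 26.7% between genotypes at 60 h. Over all genes these shares were 34.7%, 41% and 34.4%. The median length of the molting genes was 2557 bases, and the part of the length trend in their changes was not tested. Some cell markers moved beside the members. The summed TPM of 7 epidermal markers lay between 267 and 339 in daf-2 at 52 h and between 106 and 242 at 60 h, and in the double mutant between 257 and 357 and between 88.6 and 165. One epidermal marker, che-14, also stands in the list of genes with a sterol-sensing domain. The sum of 4 glial markers was 17.7 to 64.5 in daf-2 and 7.31 to 23.1 in the double mutant at 60 h, and that of 3 seam markers was 18.2 to 21.8 and 8.34 to 13.7. That of 3 body muscle markers was 802 to 4470 and 127 to 688. The median length was 6105 bases for the muscle and 4215 bases for the glial markers. The median log2 genotype difference at 60 h was -1.51 for the muscle markers and -0.91 for the glial markers, against -1.45 for all genes over 5000 bases and -0.79 for those of 2500 to 5000 bases. It was -0.25 for the seam and -0.1 for the epidermal markers. Within the last 2 lists and the glial list the direction was mixed, with 1 of 3 seam, 1 of 4 glial and 3 of 7 epidermal markers above 0. All 3 muscle markers lay below 0. Called were 1 seam, 1 glial and 1 muscle marker lower, and 1 epidermal marker higher and 1 lower. The sum of 4 neuronal markers was 437 to 530 and 376 to 501 TPM at 60 h, and that of 4 intestinal markers was 137 to 508 and 97.2 to 635 TPM, with 2 of the latter called higher in the double mutant. At 60 h 3 germline markers summed to 65.6 to 173 TPM in daf-2 and 26.3 to 51.1 TPM in the double mutant, with 2 called lower. For 3 pharyngeal markers the sums were 115 to 218 and 82.7 to 112 TPM, with none called. No marker of these lists was at 0 in all libraries of a group. The part of these shifts in the members' changes was not tested. Of 6 genes fixed as a dauer list, among them the insulin-like gene ins-6, 4 were called higher with time in each genotype. Over all genes 18.5% were called higher in daf-2 and 22.4% in the double mutant. Below 0 lay 1 gene of the list in daf-2 and 2 in the double mutant, none of them called. Between the genotypes at 60 h, 1 of the 6 was called lower in the double mutant and none higher. Over all genes 17% were called lower and 17.4% higher.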

How the data were processed

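Polyadenylated RNA of whole larvae was sequenced in 12 libraries. Per the labels a stranded kit was used. Per the submitters' processing notes, kallisto 0.46.1 and the build WBcel235 were used; the strand setting is not given in the sources used here. Per the file headers, the authors deposited for each of 36172 transcripts a length, an effective length, an estimated count and a TPM value. Estimated counts divide reads shared by similar transcripts, so the 6 members whose sums were not whole in some library (tolerance 0.01 plus rounding) are uncertain: grd-12, grl-27, wrt-2, ptc-1, ptr-10 and ptr-12. The authors' TPM values, deposited per transcript and totalling 1000000 a library, were added up per gene.

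Transcripts were assigned to genes with the Ensembl WBcel235 annotation, 31502 by identifier and 4581 by sequence name (15 of them transcripts of members), and 89 were not matched. Gene sums were rounded and tested with edgeR 4.0.16 (R 4.3.3): TMM, filterByExpr by group, 1 mean per group over all 12 libraries, the quasi-likelihood test, and Benjamini-Hochberg adjustment over 16371 genes. CPM values are scaled by TMM. A gene's length is the mean deposited length of its transcripts, weighted by abundance. No 2 libraries of a group were duplicates (chi-square per degree of freedom from 14.6 upward). Alternatives were other scalings and filters, DESeq2 1.42.0, a lowess length offset (span 0.3), a minimum fold change of 1.5, fits of 2 groups, a replicate block, each library left out and, added after seeing the data, robust moderation. The code was tested on simulated counts.

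Members and lists were chosen with earlier results of these data known, and the same holds for the naming rule: daf-42; per class and contrast up to 6 called members with the largest rise and up to 6 with the largest fall; the 5 members per class with the highest mean TPM; the ptc genes, hog-1 and qua-1; and called genes of the pathway, sterol-sensing and molting lists. Members named for their neighbours, for non-overlapping libraries at 52 h or as less firm calls (grl-8, grl-18, wrt-3, wrt-10, ptr-2, ptr-5, ptr-24) were named after their values were seen. The genes disp-1 and elt-5 of these lists were not matched. Deviations from the group mean were correlated over genes between same-numbered libraries. The correlations were 0.25, 0.14 and 0.20 for genotype at 52 h and 0.11, 0.41 and 0.14 for time in the double mutant. For genotype at 60 h they were 0.24, -0.63 and 0.12, and for time in daf-2 0.30, 0.26 and -0.03. Differently numbered libraries were not compared, so these values do not show whether equal numbers belong together. The labels do not say what a number marks. Promoter sequence was not used here, so the motif counts that were planned were not made.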

Additional observations from a re-analysis of the deposited data

Results flagged for a closer look

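The change from 52 h to 60 h differed between the genotypes, by edgeR's interaction test, in 17 members. Values are the log2 change in the double mutant minus that in daf-2. Among patched-related genes ptr-1 had 2.81, and ptr-12 -2.24, ptr-11 -2.11, ptr-13 -1.85, ptr-14 -1.53, ptr-21 -1.52, ptr-23 -1.51 and ptr-20 -1.29. With the length offset ptr-1, ptr-11, ptr-12 and ptr-13 were called in the same direction, and ptr-14, ptr-20, ptr-21 and ptr-23 were not called. The calls of ptr-20 and ptr-21 each failed when any of 9 of the 12 libraries was left out, those of ptr-14 in 5 and of ptr-23 in 3.

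Among secreted genes grl-19 had 1.77, grl-3 1.67, grl-14 1.64, hog-1 1.64, grl-5 1.47, grl-12 1.44, grd-16 1.33, wrt-1 1.22 and grl-10 1.19. All 9 fell in daf-2. In the double mutant grl-3, wrt-1 and grd-16 fell and the other 6 were not called. Leaving out 1 library ended the call of grd-16 in 10 fits, of grl-5, grl-10 and wrt-1 in 8 each, of grl-19 in 5, of grl-3 in 4 and of grl-12 in 3, and that of grl-14 or hog-1 in none. In grl-3 and hog-1 the annotation places 25 and 19 exonic bases opposite deg-3 and atat-2, whose interactions were -0.26 and 0.74 and did not pass (edgeR adjusted p 0.353 and 0.118). In grl-14, grl-19 and grl-10 it places 29, 18 and 18 opposite sbt-1, aass-1 and rpl-39. Their interactions were 0.49, -0.54 and 1.09 and did not pass (edgeR adjusted p 0.376, 0.451 and 0.143). At 60 h rpl-39 was called higher in the double mutant (0.97, edgeR adjusted p 0.0482), as was grl-10 (1.02). Whether reads were exchanged in these overlaps was not tested.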

How the results depend on the processing

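Counts of calls depended on the settings. DESeq2 called 1 secreted gene for genotype at 52 h. Over all genes it called 269 for genotype at 52 h and 3414 for the genotype by time interaction. With the length offset, all-gene counts were 214 for genotype at 52 h and 2501 for the genotype by time interaction, patched-related calls for genotype at 60 h were 17, and the change of ptc-1 over time in the double mutant reversed from -1.23 to 0.04. The replicate block gave 4 secreted calls and 921 calls over all genes for the interaction, and moved no other class count by over 1.5 times. The replicate block with the length offset gave 238 at 52 h, 2582 for the interaction, 17 patched-related calls at 60 h and 0.04 for ptc-1. A minimum fold change of 1.5 left, over all genes, 49 genotype calls at 52 h and 1945 at 60 h, with 442 interactions. Under it the change over time in daf-2 kept 3131 calls, and time in daf-2;daf-42 kept 2643. It left 9 secreted calls at 60 h, 10 patched-related calls for time in the double mutant, and 2 secreted and 3 patched-related interactions. Fits of only the 2 groups compared gave 208 at 52 h and 2294 at 60 h. Leaving out 1 library gave 39 to 125 calls over all genes at 52 h, 3013 to 7587 at 60 h, 643 to 4670 interactions, and 3624 to 8359 changes over time in the double mutant. Among members it gave 2 to 12 secreted and 4 to 10 patched-related interactions. Depth limits grl-13, grl-27 and grl-31, which had few counts.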
